A study of Mus musculus with 32 samples.

Results

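The genes described here are Nr1d1 and Nr1d2, which encode the nuclear receptors REV-ERBα and REV-ERBβ, and Rora, which encodes the retinoic acid receptor-related orphan receptor RORα. They were chosen by name and account for 3 of the 50686 genes in the count table. Their transcripts were counted in iBAT, the brown fat that lies between the shoulder blades and makes heat. The tissue came from chow-fed male C57BL/6J mice, 10 weeks old, that had no transgene and no treatment, were kept at room temperature under a light:dark cycle and were not fasted before they were killed. There were 8 groups of 4 mice, 1 for each Zeitgeber time (ZT, hours after lights on) from ZT0 to ZT21 in steps of 3 h, with lights off at ZT12, and each of the 32 mice gave 1 stranded paired-end RNA library. The groups differed in the time at which the mice were killed and in the sequencing lane: ZT0, ZT3 and ZT6 were on lane 2, ZT9, ZT12 and ZT15 on lane 3, and ZT18 and ZT21 on lane 4.

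REV-ERB and ROR proteins bind the same DNA element, an AGGTCA core behind an A/T-rich stretch, called the ROR response element. REV-ERBs lack the helix that other nuclear receptors use to recruit co-activators, bind haem as their ligand and repress transcription through the co-repressor NCoR and the histone deacetylase HDAC3. RORs activate transcription from the same element. In the core clock, BMAL1 (encoded by Arntl) and CLOCK switch on Nr1d1 and Nr1d2 through E-boxes, and the REV-ERB proteins in turn repress Arntl, Clock, Npas2, Cry1 and Nfil3. In brown fat, REV-ERBα is known for its link to the daily rhythm of body temperature and heat production.

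The sequences in front of the members' starts are shown because 2 of the 3 genes had a strong daily course and the other had not. Each is a stretch of 200 bases that begins 250 bases upstream of the RefSeq transcript start in the GRCm38.p6 build and ends 50 bases short of that start, written 5′ to 3′ on the gene's strand, with an AGGTCA core in capitals where one was found. They lie at chr11:98775428-98775627 (minus strand) for Nr1d1, chr14:18239157-18239356 (minus strand) for Nr1d2 and chr9:68653536-68653735 (plus strand) for Rora.
Nr1d1: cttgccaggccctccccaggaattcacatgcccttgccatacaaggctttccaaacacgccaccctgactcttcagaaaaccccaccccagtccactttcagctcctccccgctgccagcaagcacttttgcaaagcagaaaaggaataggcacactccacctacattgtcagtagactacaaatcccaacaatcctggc
Nr1d2: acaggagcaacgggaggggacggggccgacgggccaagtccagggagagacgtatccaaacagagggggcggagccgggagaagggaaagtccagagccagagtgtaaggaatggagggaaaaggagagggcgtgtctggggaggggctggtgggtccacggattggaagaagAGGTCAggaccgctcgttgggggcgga
Rora: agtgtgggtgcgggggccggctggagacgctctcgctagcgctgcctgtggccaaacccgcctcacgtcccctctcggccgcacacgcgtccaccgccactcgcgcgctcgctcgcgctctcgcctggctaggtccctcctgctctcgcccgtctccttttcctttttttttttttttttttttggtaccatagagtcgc

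Within windows from 250 bases before to 50 bases after the start, neither the E-box CACGTG nor the D-box TTATGTAA was found on either strand for any of the 3 genes. Of 32851 such windows of all genes, 7.15% held the E-box and 0.938% the D-box. The AGGTCA core was found in the Nr1d2 window at position -77 from the start, and 16.3% of all windows hold it. The longer form TAGGTCA, which contains that core, was absent from the members' windows and present in 2.61% of all windows. Cry1 had the E-box in such a window, at position -60. Of the 5 clock genes known to carry ROR response elements, Clock, Npas2 and Cry1 had no TAGGTCA there, and Arntl and Nfil3 had it. It stood at position 31 of one Arntl start and, on the opposite strand, at position -12 of the Nfil3 start, and 30 bases around each site are shown with the match in capitals, at chr7:113207530-113207559 (plus strand) and chr13:52981033-52981062 (minus strand).
Arntl: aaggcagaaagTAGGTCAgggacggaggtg
Nfil3: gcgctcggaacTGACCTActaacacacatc

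Total counts per library ran from 16300770 to 18254659, so that depth was nearly equal between mice, and levels are given as CPM, the counts of a gene scaled to a common library total with TMM normalization factors. The brown adipocyte markers (Ucp1, Cidea, Adipoq, Prdm16, Dio2, Fabp4 and Plin1) were all detected and summed to between 9412 and 15370 CPM. Skeletal muscle markers (Acta1, Ckm, Myh4, Myh1, Mylpf, Tnnt3 and Pvalb) ranged from 2.01 to 5421 CPM between libraries and differed widely among mice of the same time point, with time-point means from 337 CPM at ZT6 to 2554 CPM at ZT15, and 14 libraries exceeded 1000 CPM. Endothelial markers (Pecam1, Cdh5 and Kdr) had their highest mean at ZT3 (735 CPM) and their lowest at ZT12 (525 CPM), and lymphoid markers theirs at ZT9 (19.7 CPM) and ZT15 (9.08 CPM). Blood markers lay between 265 and 1137 CPM (means of 427 CPM at ZT3 and 738 CPM at ZT9). Macrophage markers lay between 11.8 and 93.1 CPM (means of 15.7 CPM at ZT0 and 39.3 CPM at ZT9). Stromal markers lay between 146 and 442 CPM, with their lowest mean at ZT0 (191 CPM) and their highest at ZT3 (327 CPM). In whole tissue, fewer cells of a type and less RNA per cell cannot be told apart. Time points on different lanes differ in lane as well as in time, and these cannot be told apart between lanes.

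Nr1d1 (ENSMUSG00000020889, chr11:98767932-98775333, minus strand, 3077 exonic bases) rose steeply after ZT0, was highest at ZT6 and was low from ZT15 to ZT0. At ZT0 the 4 mice had 18.6, 29.9, 44.0 and 54.4 CPM. At ZT3 they had 167, 145, 174 and 188 CPM, and at ZT6 190, 247, 230 and 226 CPM. The mice of ZT6 all lay above those of ZT3, which in turn lay far above those of ZT0. At ZT9 the values were 142, 169, 205 and 188 CPM, and at ZT12, when the lights went off, 154, 111, 117 and 114 CPM. At ZT15 they had dropped to 35.4, 35.6, 31.9 and 30.2 CPM. The fall from ZT12 to ZT15 left no overlap between the mice. At ZT18 the values were 13.5, 28.8, 20.7 and 15.9 CPM, and at ZT21 19.1, 18.7, 15.1 and 23.5 CPM.

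The highest mean of Nr1d1, 223 ± 24.1 CPM at ZT6 (SD, n = 4), was 11.7 times the lowest, 19.1 ± 3.43 CPM at ZT21 (SD, n = 4), and the lowest mouse of ZT6 had 8.1 times the level of the highest mouse of ZT21. From high to low the order of the means was ZT6, ZT9, ZT3, ZT12, ZT0, ZT15, ZT18 and ZT21. Of the 7 pairs of neighbours in this order 2 did not overlap, namely ZT12 above ZT0 and ZT15 above ZT18. The mice differed most among themselves at ZT0, where the SD was 42.8% of the mean, against 8.05% at ZT15. A 24 h cosine on log2 CPM had an amplitude of 1.96 ± 0.10 (SE) and a peak at ZT7.2 ± 0.20 h, and took up 92.5% of the variance. The fitted peak-to-trough ratio was 15.2-fold.

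Nr1d2 (ENSMUSG00000021775, chr14:18204054-18239127, minus strand, 5409 exonic bases) rose more slowly, peaked later and declined over the whole night. At ZT0 the mice had 17.7, 20.0, 16.5 and 26.4 CPM, at ZT3 79.7, 63.1, 60.0 and 79.3 CPM, and at ZT6 108, 96.1, 84.5 and 78.3 CPM. At ZT9 they had 127, 120, 142 and 151 CPM, and at ZT12 125, 151, 147 and 123 CPM. These 8 mice stood above those of every other time point, and ZT9 and ZT12 overlapped almost entirely. At ZT15 the values were 90.7, 76.8, 69.2 and 54.7 CPM. At ZT18 they were 31.2, 56.5, 45.9 and 38.9 CPM, and at ZT21 31.1, 28.4, 18.7 and 19.4 CPM. At ZT15 the mice thus still overlapped those of ZT3 and ZT6 in Nr1d2, whereas in Nr1d1 they lay within the range of ZT0.

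The highest mean of Nr1d2, 136 ± 14.7 CPM at ZT12 (SD, n = 4), was 6.75 times the lowest, 20.2 ± 4.42 CPM at ZT0 (SD, n = 4). The order of the means was ZT12, ZT9, ZT6, ZT15, ZT3, ZT18, ZT21 and ZT0, and 3 of the 7 neighbouring pairs did not overlap (ZT9 above ZT6, ZT3 above ZT18, and ZT18 above ZT21, the last by 31.2 against 31.1 CPM). Its 24 h cosine had an amplitude of 1.34 ± 0.09 (SE) on the log2 scale, a peak at ZT9.9 ± 0.26 h and a peak-to-trough ratio of 6.43, and took up 87.9% of the variance.

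**Figure D1:**
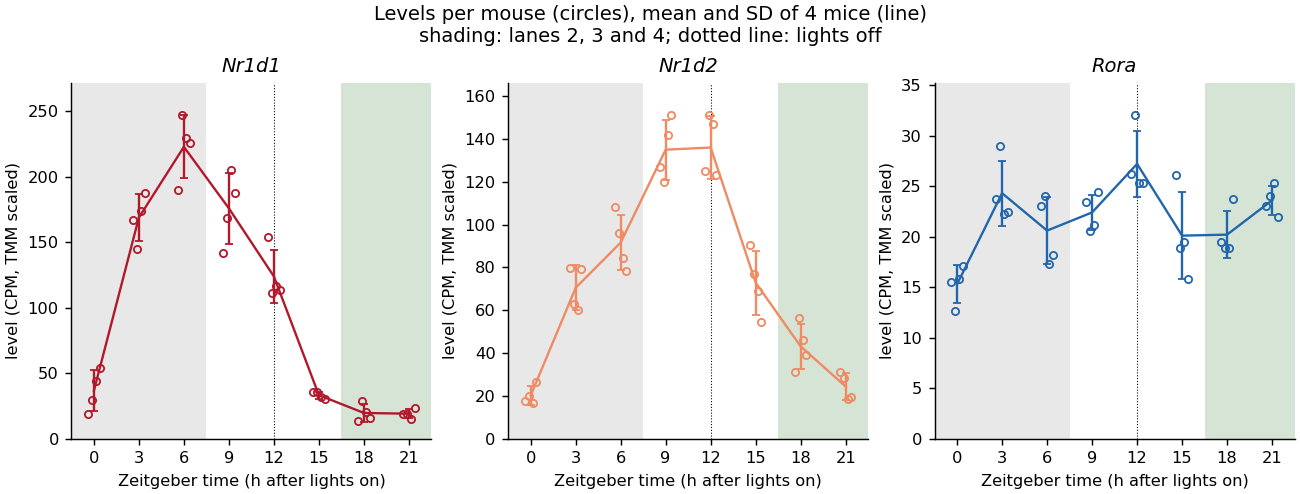
Levels of Nr1d1, Nr1d2 and Rora in CPM against Zeitgeber time, with a circle for each mouse, the mean and SD of 4 mice as a line with bars, and shading for the 3 lanes. Nr1d1 peaks at ZT6 and is down to 33.3 CPM on average at ZT15, Nr1d2 peaks at ZT9 and ZT12, and Rora stays between 12.6 and 32 CPM.

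Whether these courses exceeded the spread between mice was tested with JTK_CYCLE, the method named in the study, and with edgeR's quasi-likelihood test on the counts. JTK_CYCLE was reimplemented here, so its P values and the set of genes tested are not those of the study. JTK with its exact null gave P = 1.23e-10 for Nr1d1 and 3.1e-12 for Nr1d2, both far under the threshold of 0.05, and P = 0.349 for Rora. Of the 15505 genes tested, 36.4% passed this threshold, so that passing it is common in this tissue. The 24 h cosine in edgeR had an adjusted p of 9.56e-15 for Nr1d1 and 1.34e-11 for Nr1d2, and of 0.21 for Rora, against 36.1% of genes called. With lane as an additive factor, 17.2% of genes were called, among them Nr1d1 (adjusted p = 2.32e-08, peak at ZT7.6 ± 0.49 h) and Nr1d2 (adjusted p = 1.09e-06, peak at ZT9.9 ± 0.50 h) but not Rora (adjusted p = 0.154). Each lane held neighbouring time points only, so this factor also takes up part of a daily course. A call lost beside lane therefore does not separate lane from time of day. A 12 h component beside the 24 h cosine was called for 0.464% of genes and for none of the 3 members, whose adjusted p were 0.391, 0.29 and 0.957 for Nr1d1, Nr1d2 and Rora, and whose unadjusted p were above 0.05 as well.

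The libraries of a lane share that lane, so differences among them do not involve it. Within lane 2 (ZT0, ZT3 and ZT6) all 3 members differed between time points by edgeR, with adjusted p of 0.000465 for Nr1d1, 0.000116 for Nr1d2 and 0.0181 for Rora, where 12.7% of genes were called. The call of Rora was lost without replicate 2 of ZT0 (adjusted p = 0.0531). Within lane 3 (ZT9, ZT12 and ZT15) Nr1d1 and Nr1d2 differed (adjusted p = 2.17e-05 and 0.0118) and Rora had an adjusted p of 0.219, where 1.75% of genes were called. In that lane Nr1d2 had an adjusted p of 0.0635 without replicate 3 of ZT15 and Rora one of 0.0396 without replicate 1 of ZT15. Without the 14 libraries over 1000 CPM of muscle markers, no gene was called in lane 3 (adjusted p = 0.157 and 0.231 for Nr1d1 and Nr1d2). That set keeps only 2 or 3 mice per time point. Whether the calls were lost through the smaller number of mice or through muscle content was not tested. Within lane 4 (ZT18 and ZT21) 4.06% of genes were called and none of the members (adjusted p = 0.938, 0.0634 and 0.186, unadjusted p = 0.835, 0.00317 and 0.028), although Nr1d2 passed without the filter on low counts (0.0396) and by DESeq2's likelihood ratio test (0.00147).

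The 2 REV-ERB genes followed each other with a delay. In the cosine without lane, the fitted peak of Nr1d2 was 2.65 ± 0.24 h (SE) after that of Nr1d1, with a 95% interval from 2.18 to 3.12 h. Beside lane the peaks of Nr1d1 and Nr1d2 were closer, with larger SEs (ZT7.6 ± 0.49 and ZT9.9 ± 0.50 h). No interval of the delay was computed for that fit. The log2 ratio of Nr1d2 to Nr1d1 within each library had a 24 h cosine of amplitude 1.27 with a maximum at ZT16.4 (permutation test with 100000 resamples of the time labels over 32 mice, one-sided on F, p = 1e-05, the smallest value it can give, and 1e-05 after Benjamini-Hochberg adjustment over 3 ratios). With lane as a factor and labels permuted within lanes, its amplitude was 1.15, its maximum was at ZT16.3 and p was again 1e-05. The ratios of Rora to Nr1d1 (amplitude 1.88, maximum at ZT19.0) and of Rora to Nr1d2 (amplitude 1.20, maximum at ZT21.7) had the same p.

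Levels per kilobase of exon put genes of unequal length on one scale. On it, Nr1d1 made up the larger part of the REV-ERB transcripts at 6 of the 8 time points, not at ZT15 and ZT18. Its share of the summed level was 80.9% ± 3.61 (SD, n = 4) at ZT6, 69.5% ± 2.56 at ZT9 and 61.4% ± 5.35 at ZT12. At ZT15 and ZT18 it was 44.9% ± 3.48 and 44.1% ± 2.32 (highest mouse 49.2%). These shares divide by all 3077 exonic bases of Nr1d1, of which 263 overlap another gene, and the effect of that overlap on the share was not tested. The level of Nr1d2 per kilobase thus ran from 0.237 ± 0.0575 times that of Nr1d1 at ZT6 to 1.27 ± 0.117 times at ZT18. At ZT21 the share of Nr1d1 was 58% ± 7.27 and again over 50% in every mouse (lowest 51.9%), and at ZT0 it was 74.5% ± 7.63.

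Nr1d1 shares 263 exonic bases, 8.55% of its own, with Thra on the other strand, the gene of thyroid hormone receptor α. The libraries were stranded, but whether the strand was used in counting is not given in the sources used here, so reads from the overlap may have been counted to either gene or to neither. Thra itself was high at ZT3 (159, 143, 129 and 137 CPM) and near 100 CPM otherwise, with time-point means from 92.8 to 108 CPM outside ZT3. Its 3 h steps passed the threshold into and out of ZT3 (log2 fold changes of 0.39 ± 0.10 and -0.40 ± 0.10, edgeR adjusted p = 0.00823 and 0.0239). Among mice of the same time point the deviations of Nr1d1 and Thra from their means had r = 0.0922 (p = 0.635 by a permutation test within time points). Rora shares 82 exonic bases with the antisense gene Gm15511, which had 11 counts in all 32 libraries together.

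Rora (ENSMUSG00000032238, chr9:68653786-69388246, plus strand, 13071 exonic bases) had a narrow range and a low point at ZT0. At ZT0 the mice had 15.5, 12.6, 15.8 and 17.1 CPM. At ZT3 they had 23.7, 29.0, 22.2 and 22.4 CPM, and at ZT6 23.0, 24.0, 17.3 and 18.2 CPM. The mice of ZT0 lay below all mice of ZT3 and ZT6. At ZT9 the values were 23.4, 20.6, 21.2 and 24.4 CPM, at ZT12 26.2, 32.0, 25.3 and 25.3 CPM, and at ZT15 26.1, 18.9, 19.5 and 15.8 CPM. At ZT18 they were 19.5, 18.9, 18.9 and 23.7 CPM, and at ZT21 23.0, 24.0, 25.3 and 21.9 CPM. The mice of ZT21, the last time point of the night, again lay above those of ZT0.

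The highest mean of Rora, 27.2 ± 3.26 CPM at ZT12 (SD, n = 4), was 1.78 times the lowest, 15.3 ± 1.89 CPM at ZT0 (SD, n = 4). All 7 neighbouring pairs in the order of its means (ZT12, ZT3, ZT21, ZT9, ZT6, ZT18, ZT15 and ZT0) overlapped. The time points differed by edgeR (adjusted p = 0.000817), as they did for 39.8% of all genes and for Nr1d1 (4.52e-13) and Nr1d2 (1.77e-11). The 24 h cosine had an amplitude of 0.15 ± 0.07 (SE), a peak at ZT10.9 ± 1.78 h and took up 13.7% of the variance. With lane as a factor the amplitude was 0.27 ± 0.10 and the peak at ZT6.8 ± 2.19 h, and lane and cosine together took up 30.7%. Rora was therefore unequal over the day without following a 24 h cosine that passed either test.

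Between neighbouring time points, the rise from ZT0 to ZT3 was the step at which all 3 members passed the threshold. The log2 fold changes were 2.20 ± 0.23 (SE) for Nr1d1, 1.80 ± 0.19 for Nr1d2 and 0.67 ± 0.13 for Rora (edgeR adjusted p = 2.27e-06, 2.27e-06 and 0.00158), or 4.59-, 3.49- and 1.59-fold, with no overlap between the mice. In this step, which lies within lane 2, 13.8% of genes were called. Stromal markers had their lowest mean at ZT0 (191 CPM) and their highest at ZT3 (327 CPM), and endothelial markers their highest at ZT3 (735 CPM). The part of these cell types in the step was not tested. No member was called from ZT3 to ZT6 (2.08% of genes called) or from ZT6 to ZT9 (1.95%), where Nr1d1 had a log2 fold change of -0.34 ± 0.22 and Nr1d2 one of 0.56 ± 0.18 (adjusted p = 0.496 and 0.109, unadjusted p = 0.126 and 0.00438). From ZT9 to ZT12 no gene at all was called (0%), while 1047 genes had an unadjusted p under 0.05, and 7 were called without the filter on low counts.

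From ZT12 to ZT15, after lights off, Nr1d1 fell by 1.90 ± 0.23 and Nr1d2 fell by 0.90 ± 0.18 on the log2 scale (adjusted p = 7.87e-05 and 0.00625), where 3.04% of genes were called. Rora had a log2 fold change of -0.44 ± 0.13 (adjusted p = 0.0614), which was -0.59 without replicate 1 of ZT15 (adjusted p = 0.0122). Without the libraries over 1000 CPM of muscle markers, Nr1d1 still passed (-2.02, adjusted p = 0.0154) and Nr1d2 did not (-0.90, adjusted p = 0.216), with 3 genes called in all. From ZT15 to ZT18, which crosses lanes, Nr1d2 fell by 0.76 ± 0.18 (adjusted p = 0.0354) and Nr1d1 had -0.76 ± 0.23 (adjusted p = 0.0951, and 0.0433 without replicate 1 of ZT0), where 1.17% of genes were called. From ZT18 to ZT21 Nr1d2 fell by 0.82 ± 0.18 (adjusted p = 0.0174), where 2.06% of genes were called, while Nr1d1 had -0.05 ± 0.23. Both calls of Nr1d2 were lost in some fits without 1 library, the former without any of replicates 1, 2 and 3 of ZT15 or 1, 3 and 4 of ZT18 (adjusted p up to 0.14), the latter without replicate 2 of ZT18 or replicates 3 and 4 of ZT21 (up to 0.0858). Both were also lost by edgeR with the 8 libraries of the step alone (adjusted p = 0.141 and 0.0634) and without the libraries over 1000 CPM of muscle markers (-0.60 and -0.87, adjusted p = 0.501 and 0.336).

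From ZT21 to ZT0, across lanes again, Nr1d1 rose by 0.95 ± 0.23 (adjusted p = 0.0101, and 0.1 by edgeR with the 8 libraries of the step alone) and Rora fell by 0.63 ± 0.13 (adjusted p = 0.00357), where 7.72% of genes were called. The mice of ZT0 spread widely for Nr1d1: replicates 1 and 2 had 18.6 and 29.9 CPM, and replicates 3 and 4, whose muscle markers summed to 3957 and 2136 CPM, had 44.0 and 54.4 CPM. Without the libraries over 1000 CPM of muscle markers the step of Nr1d1 was 0.20 (adjusted p = 0.801) and that of Rora -0.71 (adjusted p = 0.031).

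**Figure D2:**
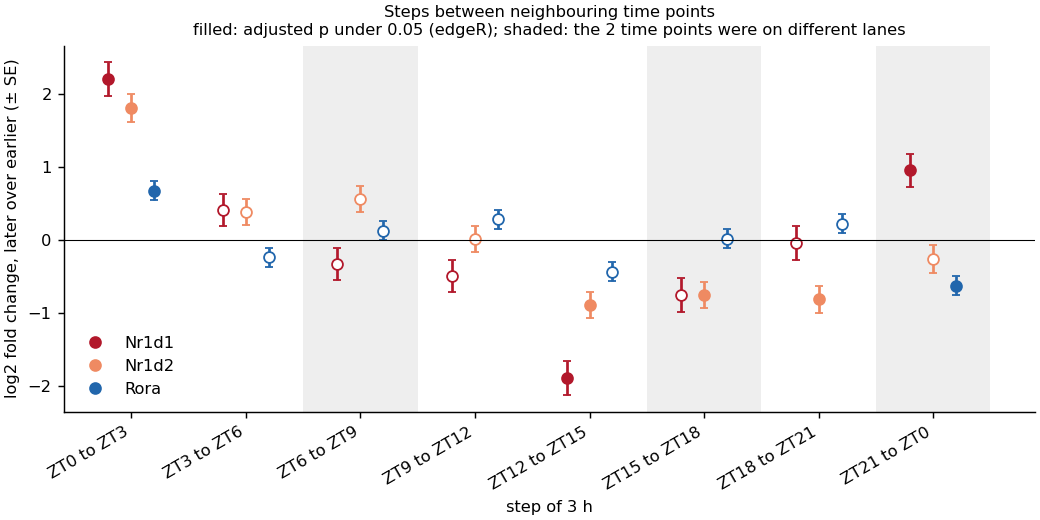
Log2 fold change of each member from each time point to the next, with its SE, filled where the edgeR adjusted p is under 0.05 and shaded where the step crosses sequencing lanes. All 3 members rise from ZT0 to ZT3, Nr1d1 and Nr1d2 fall from ZT12 to ZT15, and from ZT21 to ZT0 Nr1d1 rises by 0.95 while Rora falls by 0.63.

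Among mice of the same time point, Rora moved with the muscle markers. In 7 of the 8 time points the mouse with the highest Rora level was also the one with the highest summed muscle markers, against 1 of 8 for Nr1d1 and 3 of 8 for Nr1d2. The deviations from the time-point means of log2 Rora and of the log2 marker sum had r = 0.61 and rho = 0.617 (two-sided permutation within time points, 100000 resamples, p = 0.00031 and 0.00053, adjusted over 3 members 0.00093 and 0.00159). Without the 2 libraries farthest from the median marker sum r was 0.575 (permutation p = 0.0005). By exact permutation within lanes it was 0.652 in lane 2 (p = 0.0366), 0.617 in lane 3 (p = 0.00723) and 0.618 in lane 4 (p = 0.146). For Nr1d1 r was 0.101 (p = 0.683) and for Nr1d2 0.213 (p = 0.309) by the same permutation test. Within lanes 2, 3 and 4, r was 0.146, 0.554 and 0.068 for Nr1d2 (exact permutation p = 0.686, 0.0286 and 0.877) and 0.482, -0.225 and -0.33 for Nr1d1 (0.154, 0.562 and 0.524). Whether the relation of Rora differed from those of Nr1d1 and Nr1d2 was not tested. This relation was examined after the values had been seen.

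At ZT12, replicate 2 had 32.0 CPM of Rora and 5267 CPM of muscle markers, while the other 3 mice had at most 26.2 CPM of Rora and 1454 CPM of markers. At ZT15, replicate 1 had 26.1 and 5337 CPM, and at ZT3, replicate 2 had 29.0 and 5421 CPM. In each of these cases the mouse with the most Rora also had the highest markers of its time point, but at ZT15 replicate 3, with 3369 CPM of markers, had 19.5 CPM of Rora, within the range of the other mice. Over the 18 libraries with at most 1000 CPM of muscle markers, of which each time point kept 2 or 3, Rora still differed between time points (edgeR adjusted p = 0.01), rose from ZT0 to ZT3 by 0.69 on the log2 scale (adjusted p = 0.008) and had no 24 h cosine past the threshold (adjusted p = 0.579). Nr1d1 and Nr1d2 kept their cosine in these libraries, with peaks at ZT7.3 and ZT9.5 (adjusted p = 1.47e-06 and 4.35e-05).

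**Figure D3:**
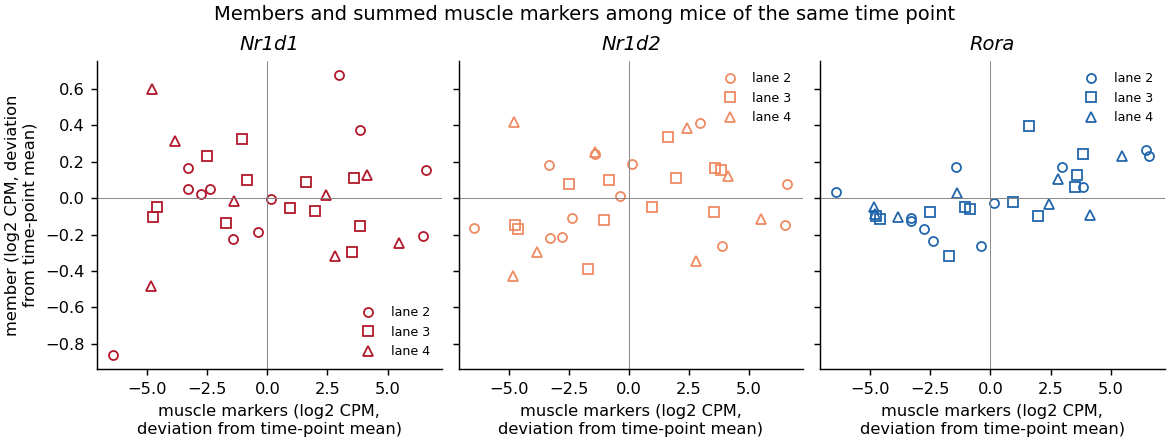
Deviation of each member's log2 CPM from its time-point mean against that of the summed muscle markers, 1 point per mouse, with the lane as the symbol. The points of Rora climb from left to right (r = 0.61 over 32 mice), and r is 0.101 for Nr1d1 and 0.213 for Nr1d2.

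Rorb, the gene of the related receptor RORβ, was near the detection limit, with 3 to 24 counts per library and at most 1.26 CPM, and had an exact JTK P of 1. Per kilobase of exon, which again puts genes of unequal length on one scale, Rora ran from 1.17 ± 0.144 CPM per kb at ZT0 to 2.08 ± 0.25 at ZT12 (SD, n = 4). Nr1d1 ran from 6.20 ± 1.11 CPM per kb at ZT21 to 72.6 ± 7.83 at ZT6, and Nr1d2 from 3.73 ± 0.816 at ZT0 to 25.2 ± 2.72 at ZT12. In every library both REV-ERB genes were therefore above Rora on this scale, the lowest Nr1d2 value of any mouse being 3.05 and the highest Rora value 2.45 CPM per kb. The summed level of the REV-ERB genes was 89.5 ± 6.84 CPM per kb at ZT6 and 10.7 ± 1.6 at ZT21. In CPM, without division by length, the order differed. At ZT21 the mean of Rora was 23.6 CPM, against 19.1 CPM for Nr1d1 and 24.4 CPM for Nr1d2. These are transcript levels, and the exonic length of all annotated isoforms was used for each gene. Which isoforms the tissue held was not examined.

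**Figure D4:**
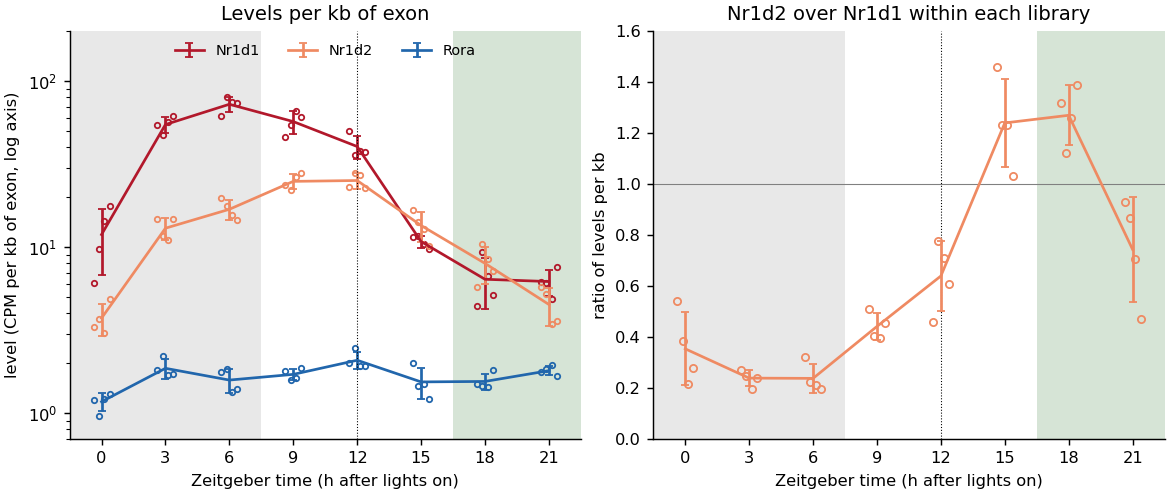
Left, levels of Nr1d1, Nr1d2 and Rora in CPM per kb of exon on a log axis against Zeitgeber time, with a circle per mouse and the mean and SD of 4 mice. Right, the ratio of Nr1d2 to Nr1d1 per kb in each library with its mean and SD, which runs from 0.237 at ZT6 to 1.27 at ZT18 and has a mean above 1 at ZT15 and ZT18.

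The clock genes known to be repressed by REV-ERBs and activated by RORs had their fitted peaks between ZT19.2 and ZT0.9, when Nr1d1 and Nr1d2 were low. All 5 of Arntl, Clock, Npas2, Cry1 and Nfil3 passed JTK, the 24 h cosine and the cosine beside lane (36.4%, 36.1% and 17.2% of all genes), with a median amplitude of 1.22 on the log2 scale against 0.14 over all genes tested. Arntl ran from 34.4 ± 4.07 CPM at ZT0 to 1.15 ± 0.203 CPM at ZT12 and Cry1 from 34.5 ± 3.75 CPM at ZT18 to 8.25 ± 1.61 CPM at ZT6 (SD, n = 4). The fitted peak of Arntl followed that of Nr1d1 by 15.94 ± 0.32 h (SE) and that of Nr1d2 by 13.29 ± 0.37 h in the cosine without lane. Both delays were shorter in the cosine beside lane, which put the peaks of Arntl, Nr1d1 and Nr1d2 at ZT21.8 ± 0.55, ZT7.6 ± 0.49 and ZT9.9 ± 0.50 h (SE). Nfil3, also called E4BP4, a repressor that competes at D-boxes, had its lowest mean at ZT6 (6.00 ± 2.99 CPM) and its highest at ZT0 (37.8 ± 5.07 CPM).

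The activators of D-boxes, Dbp, Tef and Hlf, had their peaks close to that of Nr1d2 or somewhat later. In the cosine without lane, Dbp peaked at ZT10.1 ± 0.14 h, 2.90 ± 0.26 h (SE) after Nr1d1. The difference of Nr1d2 from Dbp was -0.25 ± 0.27 h in that fit, with a 95% interval from -0.79 to 0.29 h that includes 0. Tef and Hlf had fitted peaks at ZT12.1 ± 0.26 h and ZT11.6 ± 0.27 h. Together with Arntl, Clock, Npas2 and Nfil3, 7 of 7 genes of this group passed JTK, the cosine and the cosine beside lane (36.4%, 36.1% and 17.2% of all genes).

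Of the genes of the REV-ERB co-repressor complex, Tbl1xr1 had the largest amplitude, 0.31 on the log2 scale. Of Ncor1, Hdac3, Tbl1x, Tbl1xr1 and Gps2, 4 of 5 passed JTK (36.4% of all genes), 3 the 24 h cosine (36.1%) and 2 the cosine beside lane (17.2%), with a median amplitude of 0.11, below the 0.14 over all genes. Hdac3, the deacetylase of the complex, ran from 63.7 ± 4.55 CPM at ZT0 to 80.2 ± 4.93 CPM at ZT12 and peaked at ZT10.9 (edgeR adjusted p = 2.84e-05, beside lane 0.272). Tbl1xr1, one of its scaffold proteins, ran from 22.4 ± 2.27 CPM at ZT0 to 38.1 ± 4.84 CPM at ZT9 (adjusted p = 3.41e-05, beside lane 0.00069). Ncor1 lay between 156 and 194 CPM on average and did not pass the cosine (adjusted p = 0.128).

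Of the genes for enzymes that act on the stability of REV-ERB proteins, Huwe1, Mycbp2, Fbxw7, Siah2 and Gsk3b, 5 of 5 passed JTK (36.4% of all genes), 4 the cosine (36.1%) and 2 the cosine beside lane (17.2%), with a median amplitude of 0.23 against 0.14 over all genes. Siah2, an E3 ubiquitin ligase for REV-ERBα, ran from 4.34 ± 0.395 CPM at ZT6 to 7.21 ± 1.18 CPM at ZT0, and Gsk3b, a kinase that stabilises REV-ERBα, had 93.8 ± 16.9 CPM at ZT6 and 146 ± 12.7 CPM at ZT18. The cosine passed for Siah2 (adjusted p = 0.0427, beside lane 0.00247) and for Gsk3b (0.0158), which did not pass beside lane (0.0585) or between time points (0.11). Of the ROR co-activators Ppargc1a, Ncoa1, Ncoa2, Ep300 and Crebbp, 1 of 5 passed JTK (36.4% of all genes) and none the cosine by edgeR, where 4 had an unadjusted p under 0.05, as did 46.8% of all genes. The cosine beside lane was passed by 2 (17.2%) and the test between time points by 3 (39.8%). Ppargc1a (PGC-1α) had its highest mean at ZT6 with a wide spread (59.4 ± 28.9 CPM) and an adjusted p of 0.0985 for the cosine and of 0.0218 beside lane.

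Of 11 metabolic genes linked to REV-ERB or ROR in other tissues or studies, 8 had enough counts to be tested, and Apoa1, Fgf21 and G6pc, with at most 0.332 CPM on average at any time point, did not. Of the 8, 4 passed JTK (36.4% of all genes), 4 the cosine (36.1%), 2 the cosine beside lane (17.2%) and 3 the test between time points (39.8%). Ucp1, the uncoupling protein of brown fat, had its highest mean at ZT9 (2973 ± 960 CPM) and its lowest at ZT18 (1275 ± 334 CPM), with a fitted peak at ZT6.7 (edgeR adjusted p = 0.00958, beside lane 0.202). Lpl, which releases fatty acids from lipoproteins, ran from 2847 ± 151 CPM at ZT21 to 4819 ± 645 CPM at ZT12 with a peak at ZT11.9 (adjusted p = 3.54e-06, beside lane 0.748). Srebf1, the regulator of lipogenesis, peaked at ZT15.4 (adjusted p = 0.0044, beside lane 0.0118). Apoc3 passed the cosine at 0.903 CPM (adjusted p = 0.0429, beside lane 0.592). Insig2, Elovl3, Cd36 and Pck1 did not pass it, and Pck1 passed it beside lane (adjusted p = 0.044).

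**Figure D5:**
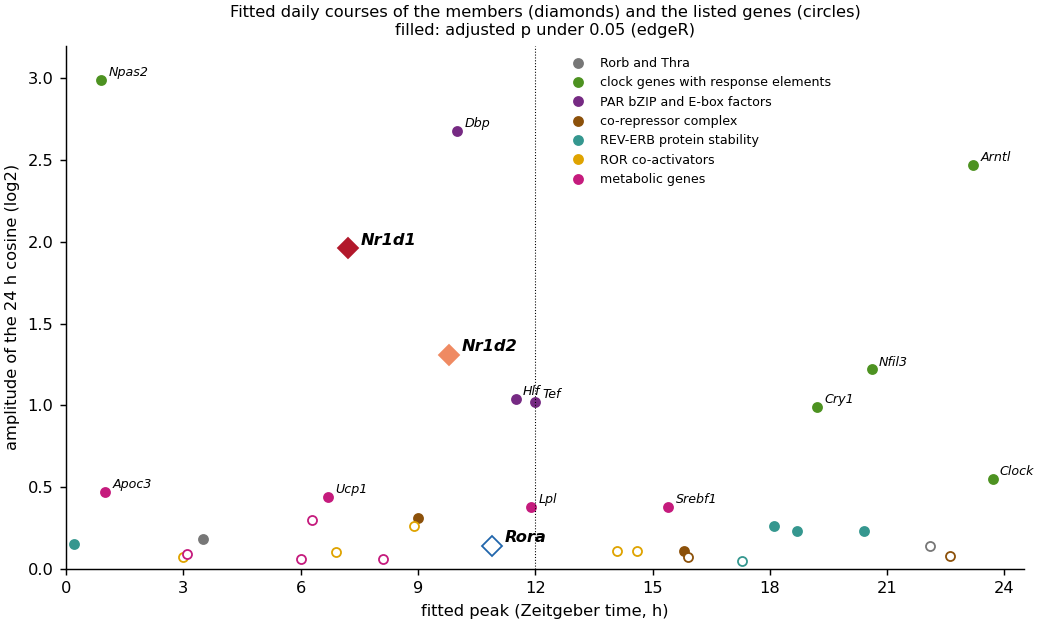
Fitted peak in Zeitgeber time against the amplitude of the 24 h cosine on the log2 scale, from the edgeR fit, for the 3 members (diamonds) and for the tested genes of the lists (circles, in the colour of the first list that holds them), filled where the adjusted p is under 0.05. Nr1d1 and Nr1d2 lie in the second part of the light phase beside Dbp, with Arntl, Cry1 and Nfil3 in the later part of the night, and Rora has an open diamond at an amplitude of 0.14.

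Over the 32 libraries, the genes most like each member in log2 CPM were as follows, as a description among 13448 other genes with a mean of at least 1 CPM. For Nr1d1 these were Cul7 (r = 0.867), Spg21 (0.863), Pygb (0.828), Dazap2 (0.827) and Wdr6 (0.827), with fitted peaks between ZT6.8 and ZT7.8. The most opposite was Cry1 (r = -0.926), and Tardbp (-0.882), Upf1 (-0.843) and Abca7 (-0.829) were among the 5 most opposite. Nr1d1 thus had a larger r in size with Cry1 than with any gene that moved with it. Its r with Nr1d2 was 0.756, rank 53, and with Rora 0.297, rank 3041.

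For Nr1d2 the most alike was Dbp (r = 0.93), followed by Cygb (0.908), Angptl2 (0.901), Cpt1a (0.884) and Gstt2 (0.884). Cpt1a encodes the enzyme that lets long-chain fatty acids enter mitochondria. The most opposite were Glrx (r = -0.895), Ric8b (-0.886), Lsm11 (-0.867), Gm10762 (-0.855) and E2f2 (-0.851), with fitted peaks between ZT21.6 and ZT22.4. For Rora the most alike were Trim24 (r = 0.822), C7 (0.781), Dpy19l4 (0.771), Fbxo38 (0.761) and Camk2g (0.733), and the most opposite Nt5m (-0.772), Rasgrp3 (-0.77), Chsy1 (-0.761), Ggta1 (-0.752) and Med19 (-0.747). These libraries share time of day, lane and muscle content, and r was not adjusted for any of them.

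Among mice killed at the same time, 10 relations of the members with each other and with Arntl, Dbp and Thra were examined on each mouse's difference from the mean of its time point (two-sided permutation within time points, 100000 resamples, Benjamini-Hochberg adjustment over 10), and none passed 0.05 after adjustment. Nr1d2 had r = 0.414 and rho = 0.427 with Dbp (permutation p = 0.0258 and 0.0311, adjusted 0.129 and 0.155) and r = -0.386 and rho = -0.44 with Arntl (permutation p = 0.0191 and 0.0275, adjusted 0.129 and 0.155). Without the 2 libraries farthest from the median of Nr1d2, r was 0.46 and -0.456. With Dbp, r was 0.0438 in lane 2, 0.667 in lane 3 and 0.822 in lane 4, and with Arntl it was -0.0112, -0.488 and -0.703 (exact permutation p = 0.886, 0.0145 and 0.066, and 0.971, 0.0447 and 0.0938). Both relations were thus near 0 in lane 2. They passed after adjustment without replicate 4 of ZT0 (permutation, adjusted p = 0.0358 each) or without replicate 1 of ZT3 (0.0308 each).

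Nr1d1 and Nr1d2 had r = 0.432 and rho = 0.335 (permutation p = 0.0565 and 0.12, adjusted 0.188 and 0.3), which was 0.298 without the 2 farthest libraries and 0.349, 0.288 and 0.625 in lanes 2, 3 and 4. Nr1d2 and Rora had r = 0.321 and rho = 0.308 (permutation p = 0.112 and 0.113, adjusted 0.28 and 0.3), which was 0.378 without the 2 farthest libraries and 0.291, 0.821 and -0.231 in lanes 2, 3 and 4 (exact permutation p = 0.391, 0.0185 and 0.599). In lane 3 the muscle markers had r = 0.554 with Nr1d2 and 0.617 with Rora. Without the libraries over 1000 CPM of these markers, r of Nr1d2 and Rora was 0.42 (permutation p = 0.125, adjusted 0.313). The part of muscle content in this relation was not tested. The other 6 relations had r between -0.178 and 0.247. Nr1d1 had r = -0.0779 with Arntl and r = -0.0412 with Dbp (permutation p = 0.622 and 0.805, adjusted 0.794 and 0.805). In lanes 2, 3 and 4 these were 0.162, -0.479 and 0.00155 for Arntl (exact permutation p = 0.486, 0.236 and 0.997) and -0.347, 0.44 and 0.353 for Dbp (exact permutation p = 0.111, 0.254 and 0.344), so the sign was not the same in every lane.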

How the data were processed

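The authors' methods and processing notes state that stranded paired-end reads were mapped to mm10 with GSNAP (version 2017-09-11) and counted per Ensembl gene with HTSeq-count (version 0.6.1). Their deposited values are raw counts per gene, without normalization, for 32 libraries. Whether the strand was used is not given in the sources used here.

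In R 4.3.3, filterByExpr by time point in edgeR (version 4.0.16) left 15505 genes, which were scaled with TMM. edgeR's quasi-likelihood test with Benjamini-Hochberg (BH) adjustment over these genes and a threshold of 0.05 was used for the cosines, time points, lanes and steps. JTK_CYCLE was reimplemented (15 templates of 21 and 24 h, exact null, P under 0.05). Amplitudes and peaks in the text come from cosines fitted to log2 CPM with a prior count of 2, with delta-method SEs, and those of the list genes with no SE from edgeR. Alternatives were DESeq2 (version 1.42.0) size factors or library size for scaling, no filter, removal of mitochondrially encoded genes, limma (version 3.58.1) voom, DESeq2's likelihood ratio test, a replicate block and leaving out each library. Leaving out libraries over 1000 CPM of muscle markers, and the relation with these markers, were chosen after the data were seen. The scripts were tested on simulated counts. Gene positions are from the GRCm38 annotation supplied here.

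The members and gene lists were chosen with earlier results of these data known. Named are the members, the genes of these lists and, per member, the 5 highest and 5 lowest genes by r, apart from a few genes that are not reported here and were left out of the list counts. Depth was 16300770 to 18254659 counts per library, which limits precision for Rorb. The labels name separate samples per time point, so p-values measure the spread between these mice.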

Additional observations from a re-analysis of the deposited data

Results flagged for a closer look

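In 32 groups of 4 mice (3 members and the ratio of Nr1d2 to Nr1d1, at 8 time points), 3 had a mouse whose gap to the nearest other exceeded Dixon's 95% critical value, where chance flags about 1 group in 20. At ZT12, replicate 1 had 154 CPM of Nr1d1 against 111 to 117 CPM in the other 3 mice, with 177 CPM of muscle markers. At ZT12, replicate 2 had 32 CPM of Rora against 25.3 to 26.2 CPM, with 5267 CPM of muscle markers. At ZT18, replicate 4 had 23.7 CPM of Rora against 18.9 to 19.5 CPM, with 3900 CPM of muscle markers. In both cases of Rora the mouse also had the highest muscle markers of its time point, and the part of muscle tissue in these levels was not tested.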

How the results depend on the processing

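Of 1760 values recomputed without 1 library each, 1726 kept their side of the threshold and, for steps and relations, their sign, 11 lost the call, 7 gained it and 16 changed sign. Of 430 under other settings, 404 kept both, 9 lost the call, 2 gained it and 15 changed sign. The values that changed sign passed the threshold in neither fit, and the cause was not tested where a call or sign changed. JTK, the 24 h cosine and the ZT0 to ZT3 step kept their calls for Nr1d1 and Nr1d2 throughout. Without 1 library, the log2 step from ZT12 to ZT15 of Rora ran from -0.59 to -0.34, from ZT15 to ZT18 those of Nr1d1 from -1.0 to -0.61 and of Nr1d2 from -0.92 to -0.63, and from ZT18 to ZT21 that of Nr1d2 from -0.96 to -0.66. The adjusted p within lane 2 for Rora ran from 0.0131 to 0.0531, and within lane 3 from 0.00399 to 0.0635 for Nr1d2 and from 0.0396 to 0.429 for Rora. The relation of Nr1d2 among mice ran from -0.464 to -0.329 with Arntl and from 0.366 to 0.552 with Dbp. Signs changed without 1 library for the log2 steps of Nr1d2 from ZT9 to ZT12 (-0.04 to 0.07), of Rora from ZT15 to ZT18 (-0.09 to 0.16) and of Nr1d1 from ZT18 to ZT21 (-0.19 to 0.20), and for the relations of Nr1d1 with Arntl (-0.175 to 0.0862), Dbp (-0.104 to 0.0915) and Thra (-0.0909 to 0.22). They also changed with library size alone for Nr1d1 with Rora (0.0372) and the ZT15 to ZT18 step of Rora (-0.01), in lane 2 for Nr1d1 with Rora (0.0805) and Arntl (0.162), in lane 3 for Nr1d1 with Rora (0.0624) and Dbp (0.44), in lane 4 for Nr1d2 with Rora (-0.231), Nr1d1 with Arntl (0.00155), Dbp (0.353) and Thra (-0.303) and Rora with Arntl (0.0442) and Dbp (-0.351), and without the libraries over 1000 CPM of muscle markers for Nr1d1 with Arntl (0.0564) and Thra (-0.467) and the ZT9 to ZT12 step of Nr1d2 (-0.07).

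With the 8 libraries of a step alone, calls were lost at unchanged values for Nr1d2 from ZT15 to ZT18 (-0.76, edgeR adjusted p = 0.141) and ZT18 to ZT21 (-0.82, 0.0634) and for Nr1d1 from ZT21 to ZT0 (0.95, 0.1), with fewer samples to estimate the spread. Without the libraries over 1000 CPM of muscle markers, which leaves 18, calls were lost for Nr1d2 from ZT12 to ZT15 (-0.90), ZT15 to ZT18 (-0.60, 0.501) and ZT18 to ZT21 (-0.87, 0.336), for Nr1d1 from ZT21 to ZT0 (0.20), and within lane 3 for Nr1d1 (0.157) and Nr1d2 (0.231). Within lane 4 Nr1d2 was called with no filter (0.0396) and by DESeq2 (0.00147). Replicate numbers did not pair the mice (median correlation of same-numbered mice -0.119, and 4 of 32 mice correlated best with their own number). The replicate block changed no call of the members (edgeR adjusted p = 2.47e-13 for the 24 h cosine of Nr1d1, 1.49e-10 for the 24 h cosine of Nr1d2 and 0.242 for the 24 h cosine of Rora). With it, 106 genes were called within lane 3, against 272 without, and 72 within lane 4, against 630. Over all settings the genes called ranged from 3690 to 5997 for the cosine (5602 as reported), 1284 to 3249 beside lane (2661), 2499 to 7013 between time points (6173), 3713 to 6049 for JTK (5640) and 0 to 448 for the 12 h component (72). For the steps in order from ZT0 the ranges were 928 to 3278 (2134), 72 to 360 (322), 11 to 352 (303), 0 to 7 (0), 3 to 521 (472), 56 to 220 (182), 2 to 630 (320) and 144 to 1650 (1197). Within lanes 2, 3 and 4 they were 871 to 3292 (1963), 0 to 822 (272) and 68 to 981 (630). Depth limits mainly Rorb, with at most 24 counts in a library.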
